A study of Homo sapiens with 14 samples.

Results

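The comparison described here is that of CAOV3 cells given GSK-J4 with CAOV3 cells given GSK-J5, each at 2.5 µM for 72 h. CAOV3 is an established line of human ovarian adenocarcinoma, grown in DMEM/F12 medium in multiwell plates. Its members were chosen by line, compound and time alone: 6 of the 22 RNA-seq count columns of the series, 3 per compound, deposited under 4 of its 14 samples. The other columns used for comparison are the 6 of OVCAR-3 and the 6 of SKOV3, a pair of other ovarian cancer lines given the same compounds at the same dose and time. Replicates 1 and 2 of each compound formed a first library set, for which the labels name stripped medium, an RNeasy mini kit and commercial cDNA library preparation. Replicate 3 was a second set, with an RNeasy Plus kit, poly(A) enrichment and medium with serum. No cells without a compound were sequenced in the libraries used here, so every value below is GSK-J4 relative to GSK-J5. Nothing in the labels states that replicates were separate cultures, and p-values therefore measure the spread between these libraries, which may be technical.

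KDM6A, also called UTX, and KDM6B, also called JMJD3, are Jumonji-domain demethylases. GSK-J4 is a cell-permeable ester that blocks them, and its pyridine isomer GSK-J5 serves as the inactive control compound. The enzymes remove methyl groups from lysine 27 of histone H3, the mark that the EZH2-containing Polycomb complex PRC2 writes at silent genes, such as HOX genes and developmental transcription factors. KDM6B is also induced by inflammatory signals in many cell types.

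Total counts of the CAOV3 libraries ran from 24141175 to 33919587, and 15850 to 16739 genes per library held at least 10 counts. The labelled tissue was checked against its markers. Of 10 epithelial and Müllerian markers, 9 passed the filter on low counts, and their summed level was 6649 to 7105 CPM (counts scaled to a common library total) with GSK-J5 and 7304 to 7382 with GSK-J4; WT1, the remaining one, had 3 counts over all 6 libraries. Of 8 fibroblast markers 2 passed the filter, with a summed level of 53.4 to 55.7 CPM with GSK-J5 and 32.3 to 59.7 CPM with GSK-J4, and COL3A1, DCN, LUM and FAP were at 0 counts. The endothelial marker TEK and the leukocyte markers PTPRC, CD3E, MS4A1 and ITGAM were also at 0. The second set stood apart from the first. The log2 ratios of GSK-J4 to GSK-J5 in same-numbered libraries had a standard deviation over 12941 genes of 0.432 in pair 1, 0.474 in pair 2 and 0.276 in pair 3. Across genes, which are not independent replicates, Pearson's r of these ratios was 0.392 between pairs 1 and 2, 0.0444 between pairs 1 and 3 and 0.109 between pairs 2 and 3. Results are therefore given with all 6 libraries and with replicates 1 and 2 alone.

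With all 6 libraries, few genes differed between the compounds in CAOV3, by small folds. The antiviral genes SAMD9L, SAMD9 and OAS3, the chromatin remodeller ATRX and the DNA repair gene BRCA2 were among those lower with GSK-J4. The secreted Wnt inhibitor DKK1, the protease inhibitor TFPI2 and the calcium-binding protein S100A6 were higher. Of 16351 genes tested, 11 were higher with GSK-J4 (0.0673%) and 41 were lower (0.251%) at an adjusted p below 0.05, with adjusted p-values from 0.0385 to 0.0483 (edgeR's quasi-likelihood test with Benjamini-Hochberg adjustment and the library set as a covariate). All 11 and all 41 had the same direction in the 3 same-numbered pairs. Of all 16351 genes, 2902 were above 0 and 2785 below 0 in all 3 pairs. The called genes were chosen on these same libraries, so their shared direction is no separate support. The fold was 1.32 to 2.26 for the 11 higher genes, with a median of 1.39, and 1.34 to 3.52 for the 41 lower ones, with a median of 1.60. At an unadjusted p below 0.05 there were 1269 higher and 1476 lower genes. In bulk RNA, fewer cells expressing a gene and less of its RNA per cell cannot be told apart.

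**Figure D1:**
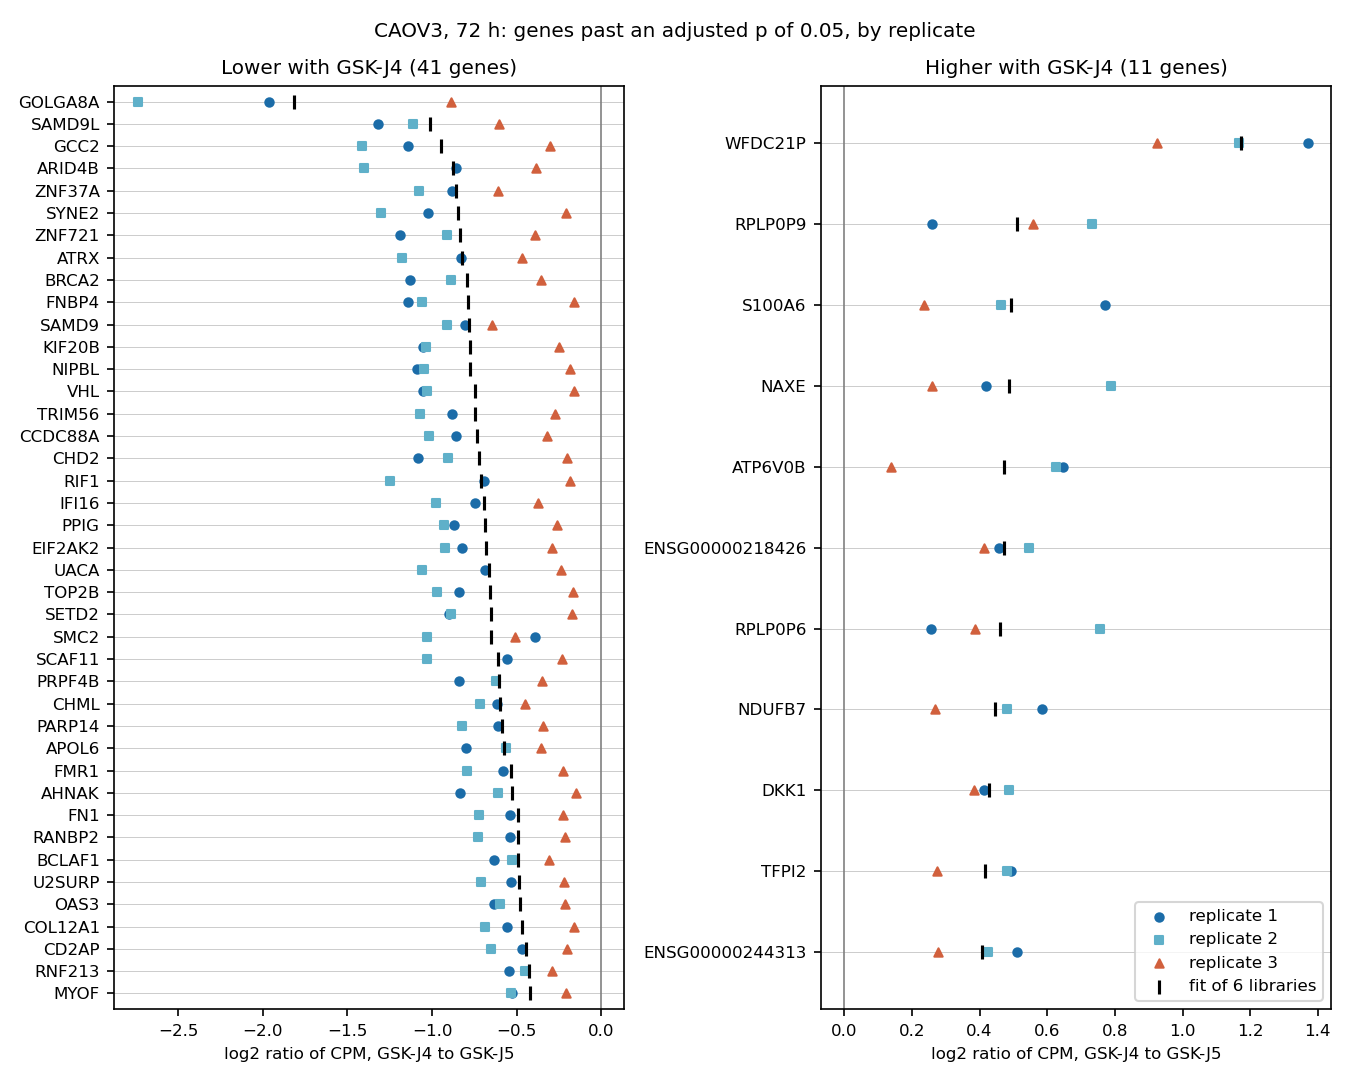
Log2 ratio of GSK-J4 to GSK-J5 in same-numbered CAOV3 libraries (x axis) for the 41 genes lower and the 11 genes higher at an adjusted p below 0.05 (y axis, by symbol). Coloured points stand for replicates 1, 2 and 3 and the black bar for the fit of 6 libraries, and every point lies on its gene's side of 0, with pair 3 medians of -0.26 and 0.28. The genes were chosen on these same libraries.

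The calls rested on a narrow margin and on the first library set. Without replicate 3 of both compounds, 1109 genes were higher (6.7% of 16554 tested) and 1221 lower (7.38%), and all 52 genes called over 6 libraries were among them. Without replicate 1 there were 3 higher and 9 lower genes, and without replicate 2 there were 4 and 14. Single libraries had the same weight: the counts were 0 and 0 without GSK-J5 replicate 1, 1 and 0 without GSK-J5 replicate 2, 0 and 0 without GSK-J4 replicate 1, and 0 and 0 without GSK-J4 replicate 2. Without GSK-J5 replicate 3 they were 1112 and 1259, and without GSK-J4 replicate 3 they were 1111 and 1260. With edgeR the counts were 0 and 0 without the library set as a covariate and 0 and 0 in 1 fit of the 18 libraries of all lines, whereas limma voom called 137 higher and 177 lower genes and the Wald test of DESeq2 called 267 and 376. In pair 3 alone the 41 lower genes had log2 ratios from -0.89 to -0.15, with a median of -0.26, and the 11 higher genes had 0.14 to 0.92, with a median of 0.28. Pair 3 was part of the fit that called these genes, so no conclusion is drawn from its signs. The groups did not overlap for 3 of the 11 higher genes (DKK1, TFPI2, ATP6V0B) and for 26 of the 41 lower ones. Over all genes tested, GSK-J4 lay wholly above GSK-J5 for 6.32% and wholly below for 6.82%.

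The enzymes that GSK-J4 blocks were expressed in every CAOV3 library. KDM6A, the X-linked demethylase also called UTX (chrX:44873177-45112602, GRCh38), had 26.5, 22.3 and 23.6 CPM with GSK-J5 (replicates 1 to 3) and 19.5, 20.6 and 20.6 CPM with GSK-J4. Its log2 fold change was -0.25 (95% interval -0.54 to 0.03, adjusted p = 0.368), and the groups did not overlap. KDM6B (chr17:7839904-7854796) had 54.1, 49.1 and 57.4 CPM with GSK-J5 and 25.9, 40.7 and 52.99 CPM with GSK-J4, a log2 fold change of -0.46 (95% interval -0.78 to -0.14, adjusted p = 0.134). GSK-J4 replicates 1 and 2 lay below every GSK-J5 value, replicate 1 the furthest, and GSK-J4 replicate 3 lay within the GSK-J5 range. In replicates 1 and 2 alone KDM6B was lower, with a log2 fold change of -0.63 (adjusted p = 0.0164). It did not pass there once each library's trend with transcript length was taken as an offset (-0.46, adjusted p = 0.0886). The same held with an offset for length and GC content (-0.38, adjusted p = 0.131). Of the 13 tested genes of KDM6 enzymes, PRC2 subunits and their partners, 0 passed edgeR's test over 6 libraries (1 higher and 1 lower at an unadjusted p below 0.05, and 1 higher by the Wald test of DESeq2), and their median log2 fold change was -0.04, against -0.01 over all genes. In replicates 1 and 2, the PRC2 partner PHF1 was higher and KDM6B and the PRC2 cofactor AEBP2 were lower. The shares over all genes were 0.0673% higher and 0.251% lower over 6 libraries, and 6.7% and 7.38% in replicates 1 and 2.

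Genes that interferon induces stood among the lower genes. Interferon signalling activates transcription factors that bind repeated GAAA-type elements in the promoters of antiviral genes. SAMD9L and SAMD9 are neighbouring antiviral restriction factors on chromosome 7. SAMD9L (chr7:93130055-93148369) had 13.9, 11.3 and 16.7 CPM with GSK-J5 and 5.55, 5.19 and 10.96 CPM with GSK-J4. It was lower by 1.01 ± 0.20 on the log2 scale (SE), a 2.02-fold difference (adjusted p = 0.0438), and all 3 GSK-J4 values lay below the lowest GSK-J5 value. SAMD9 (chr7:93099513-93118023) had 35.6, 28.8 and 47.3 CPM with GSK-J5 and 20.4, 15.3 and 30.3 CPM with GSK-J4. It was 1.72-fold lower (log2 fold change -0.78, SE 0.14, adjusted p = 0.0420). Its groups overlapped because GSK-J4 replicate 3 lay above GSK-J5 replicate 2, while each pair had the same direction.

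OAS3 (chr12:112938352-112973249), an oligoadenylate synthetase that senses double-stranded RNA, had 201, 203 and 212 CPM with GSK-J5 and 129, 134 and 182 CPM with GSK-J4. It was 1.40-fold lower (log2 fold change -0.48, SE 0.09, adjusted p = 0.0438), with no overlap of the groups. EIF2AK2, the kinase PKR that double-stranded RNA activates, had 176, 180 and 198 CPM with GSK-J5 and 99.4, 95.0 and 162 CPM with GSK-J4 (log2 fold change -0.68, SE 0.11, adjusted p = 0.0385). PARP14, an interferon-induced ADP-ribosyltransferase, had 186, 191 and 239 CPM with GSK-J5 and 122, 108 and 189 CPM with GSK-J4 (log2 fold change -0.59, SE 0.09, adjusted p = 0.0385). In EIF2AK2 the groups were apart, and in PARP14 only GSK-J4 replicate 3 reached the GSK-J5 range. EIF2AK2, PARP14 and the next 4 genes fall outside the rule for named genes, except TRIM56, and were chosen after their values were seen. IFI16, a sensor of foreign DNA, had a log2 fold change of -0.69, TRIM56, a ubiquitin ligase of innate immunity, one of -0.75, RNF213, an interferon-induced ubiquitin ligase, one of -0.43, and APOL6, an interferon-induced apolipoprotein L, one of -0.57. Their adjusted p-values were 0.0420, 0.0420, 0.0438 and 0.0385.

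The promoters of 4 of these lower genes are shown because each holds the paired element of interferon-responsive promoters in the form GAAANNGAAA, or TTTCNNTTTC on the other strand. Each run is RefSeq sequence of GRCh38.p14 from 250 bases before to 50 bases after the gene's start, printed 5′ to 3′ on the gene's strand, with the matches in capitals. SAMD9 is at chr7:93117930-93118229 on the minus strand, OAS3 at chr12:112938224-112938523 on the plus strand, PARP14 at chr3:122680589-122680888 on the plus strand and EIF2AK2 at chr2:37156931-37157230 on the minus strand.
SAMD9: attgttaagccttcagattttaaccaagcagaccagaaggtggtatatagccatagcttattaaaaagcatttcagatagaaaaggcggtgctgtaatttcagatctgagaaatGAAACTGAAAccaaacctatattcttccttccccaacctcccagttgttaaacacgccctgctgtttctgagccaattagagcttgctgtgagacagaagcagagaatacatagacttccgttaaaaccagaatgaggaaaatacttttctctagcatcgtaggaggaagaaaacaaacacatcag
OAS3: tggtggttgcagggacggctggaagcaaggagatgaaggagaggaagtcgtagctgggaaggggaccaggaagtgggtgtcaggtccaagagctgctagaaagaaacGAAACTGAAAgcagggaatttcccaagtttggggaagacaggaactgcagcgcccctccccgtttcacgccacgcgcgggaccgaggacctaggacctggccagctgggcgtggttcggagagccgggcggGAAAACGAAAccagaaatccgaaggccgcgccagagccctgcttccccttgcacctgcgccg
PARP14: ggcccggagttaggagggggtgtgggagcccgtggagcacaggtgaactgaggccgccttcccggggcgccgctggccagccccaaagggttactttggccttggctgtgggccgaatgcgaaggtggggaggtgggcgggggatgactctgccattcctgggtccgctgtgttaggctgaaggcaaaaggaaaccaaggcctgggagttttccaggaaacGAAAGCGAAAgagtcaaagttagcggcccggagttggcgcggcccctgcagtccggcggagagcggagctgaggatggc
EIF2AK2: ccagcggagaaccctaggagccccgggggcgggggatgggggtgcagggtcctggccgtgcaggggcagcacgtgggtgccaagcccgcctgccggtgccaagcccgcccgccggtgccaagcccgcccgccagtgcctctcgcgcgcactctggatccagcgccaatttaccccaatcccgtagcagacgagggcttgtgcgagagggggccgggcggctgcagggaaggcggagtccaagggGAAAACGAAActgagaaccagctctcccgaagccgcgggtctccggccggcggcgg
OAS3 held 2 matches and the other 3 promoters 1 each. The element was searched on both strands and matches were allowed to overlap. It was present in 996 of 27305 promoters in all (3.65%), in 310 of the 11677 promoters found for tested genes (2.65%), and in 13 of 21 found for the list of interferon-stimulated genes (61.9%). Of the 34 lower genes with an entry, 6 held it (17.6%): EIF2AK2, FMR1, FNBP4, OAS3, PARP14 and SAMD9. SAMD9L, IFI16, TRIM56 and RNF213 were among the entries without it, and APOL6 had no entry. Of the 5 higher genes with an entry, 0 held it. A match describes the letters of the window and is not a site of factor binding.

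The list of interferon-stimulated genes, taken whole, had mostly lower estimates with GSK-J4, and few of its members passed the test. Of 28 tested members, 3 were lower (SAMD9L, SAMD9 and OAS3) and 0 higher, against 0.251% lower and 0.0673% higher over all genes. In replicates 1 and 2 alone, 7 were lower and 0 higher, against 7.38% and 6.7% over all genes. The estimate was below 0 for 23 of the 28, and their median log2 fold change was -0.18, against -0.01 over all 16351 genes. The median ratio of the list was -0.19 in pair 1, -0.09 in pair 2 and -0.24 in pair 3, and 15 of the 28 were below 0 in all 3 pairs, against 2785 of all 16351 genes. XAF1, an interferon-induced apoptosis factor, had 9.29, 8.03 and 8.98 CPM with GSK-J5 and 3.22, 1.93 and 6.16 CPM with GSK-J4 (log2 fold change -1.33, adjusted p = 0.0550). MX1, an antiviral GTPase, had a log2 fold change of -0.51 (adjusted p = 0.0703), and OAS2, another oligoadenylate synthetase, one of -0.63 (adjusted p = 0.0617). Neither these nor XAF1 passed the threshold, though the groups did not overlap in any of the 3. The ubiquitin-like modifier ISG15 had 0.16 (adjusted p = 0.453) and the regulator IRF7 had 0.27 (adjusted p = 0.292). With an offset for transcript length the list's median was -0.24 over 6 libraries.

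**Figure D2:**
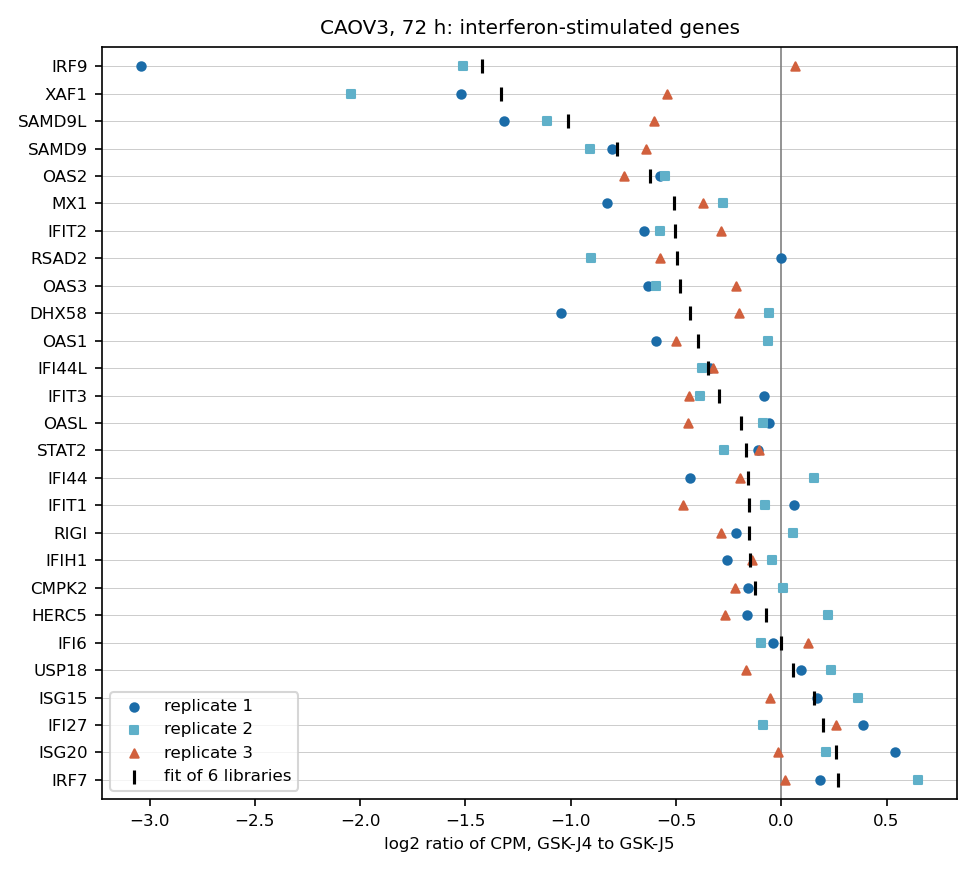
Log2 ratio of GSK-J4 to GSK-J5 in same-numbered CAOV3 libraries (x axis) for the tested interferon-stimulated genes (y axis, by symbol), all but 1 of the 28, with coloured points for replicates 1, 2 and 3 and a black bar for the fit of 6 libraries. Most points lie below 0, and the medians of the 28 genes were -0.19, -0.09 and -0.24 in pairs 1, 2 and 3.

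Further lower genes with a known role at chromatin are described one by one. They were put together after their values were seen, no list of such genes was counted, and the lists of KDM6 and PRC2 genes and of 2-oxoglutarate oxygenases held 0 called genes over 6 libraries. ATRX, a chromatin remodeller of the SWI/SNF family (chrX:77504878-77786233), had 63.8, 75.2 and 87.1 CPM with GSK-J5 and 36.0, 33.3 and 63.0 CPM with GSK-J4. It was 1.77-fold lower (log2 fold change -0.82, SE 0.12, adjusted p = 0.0385), and the groups did not overlap. ARID4B, a subunit of the SIN3 histone deacetylase complex, had 38.5, 45.6 and 51.1 CPM with GSK-J5 and 21.3, 17.2 and 39.0 CPM with GSK-J4, a 1.84-fold difference (adjusted p = 0.0416). GSK-J4 replicate 3 lay just above GSK-J5 replicate 1. NIPBL, which loads cohesin, was 1.71-fold lower (adjusted p = 0.0482), with 55.5, 62.4 and 130 CPM with GSK-J4 against 118, 129 and 148 CPM with GSK-J5. SETD2, the methyltransferase that writes trimethylation of lysine 36 on histone H3, was 1.57-fold lower (adjusted p = 0.0452), with 29.1, 29.5 and 55.1 CPM with GSK-J4 against 54.3, 54.6 and 62.1 CPM with GSK-J5. In both genes the first set was well below GSK-J5 and replicate 3 fell within its range. The log2 fold changes of others were those of the remodeller CHD2 (-0.72), the condensin subunit SMC2 (-0.65), the topoisomerase TOP2B (-0.66) and RIF1, a regulator of replication timing and break repair (-0.71).

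BRCA2, which acts in DNA repair by homologous recombination, had 27.5, 25.4 and 28.1 CPM with GSK-J5 and 12.5, 13.7 and 21.95 CPM with GSK-J4. It was 1.73-fold lower (log2 fold change -0.79, SE 0.16, adjusted p = 0.0444), with no overlap. BRCA2 was the 1 lower gene of 32 tested in the list of homologous recombination genes, against 0.251% lower over all genes. It was named because it was called, so this count is no result about the list. VHL, the substrate receptor of the ubiquitin ligase that removes hypoxia-inducible factors, had 97.8, 100 and 97.1 CPM with GSK-J5 and 47.1, 49.2 and 86.8 CPM with GSK-J4 (log2 fold change -0.75, SE 0.14, adjusted p = 0.0438). Its 3 GSK-J5 values were nearly level, while GSK-J4 was low in the first set and close to GSK-J5 in the second. KIF20B, a kinesin of cytokinesis, was 1.71-fold lower (adjusted p = 0.0385). SYNE2, which tethers the nucleus to the cytoskeleton, was 1.80-fold lower (adjusted p = 0.0438), and the Golgi tethering protein GCC2 was 1.93-fold lower (adjusted p = 0.0416). FN1, which encodes the matrix protein fibronectin, had 183, 180 and 138 CPM with GSK-J5 and 126, 109 and 118 CPM with GSK-J4 (log2 fold change -0.49, SE 0.10, adjusted p = 0.0444). It was the 1 lower gene of 19 tested mesenchymal genes, again against 0.251% over all genes and no result about the list. The lower genes of the named set also held the zinc finger genes ZNF37A (log2 fold change -0.86) and ZNF721 (-0.84) and the formin-binding protein FNBP4 (-0.79). GOLGA8A had the lowest estimate, with 3.03, 4.41 and 9.02 CPM with GSK-J5 and 0.764, 0.645 and 4.87 CPM with GSK-J4 (log2 fold change -1.82, adjusted p = 0.0444), but it belongs to a family of near-identical copies among which its reads may be split.

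The 11 genes higher with GSK-J4 held 6 protein-coding genes, 4 processed pseudogenes and 1 transcribed unitary pseudogene. DKK1 (chr10:52314296-52318042), a secreted antagonist of Wnt co-receptors, had 250, 260 and 227 CPM with GSK-J5 and 333, 365 and 296 CPM with GSK-J4. It was 1.35-fold higher (log2 fold change 0.43, SE 0.08, adjusted p = 0.0431), and every GSK-J4 library lay above every GSK-J5 library. TFPI2, an extracellular inhibitor of serine proteases, had 134, 143 and 137 CPM with GSK-J5 and 189, 200 and 166 CPM with GSK-J4. It was 1.34-fold higher (log2 fold change 0.42, SE 0.09, adjusted p = 0.0474), again without overlap. ATP6V0B, a membrane subunit of the proton pump of lysosomes, had 205, 204 and 202 CPM with GSK-J5 and 321, 315 and 222 CPM with GSK-J4 (log2 fold change 0.47, SE 0.10, adjusted p = 0.0452). Its groups were also apart, though replicate 3 differed far less than replicates 1 and 2.

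S100A6 (chr1:153534599-153536244), a small calcium-binding protein, had 1847, 1980 and 1337 CPM with GSK-J5 and 3152, 2727 and 1575 CPM with GSK-J4. It was 1.41-fold higher (log2 fold change 0.49, SE 0.09, adjusted p = 0.0416), and the groups overlapped because both replicate 3 libraries were low. S100A6 was the 1 called gene of 10 tested S100 genes, whose median was 0.24. Over all genes 0.0673% were higher, and the gene was named because it was called, so this count is no result about the list. NDUFB7, a subunit of respiratory complex I, was 1.36-fold higher (adjusted p = 0.0452). NAXE, which repairs damaged NADPH, was 1.40-fold higher (adjusted p = 0.0444). WFDC21P, a transcribed pseudogene, had 5.14, 5.02 and 2.32 CPM with GSK-J5 and 13.3, 11.3 and 4.41 CPM with GSK-J4, a 2.26-fold difference (adjusted p = 0.0438) that was present in each pair although the groups overlapped. RPLP0P9 (log2 fold change 0.51) and RPLP0P6 (0.46) are processed copies of the ribosomal stalk gene RPLP0, which itself had 0.31 (adjusted p = 0.0750), so their reads may be those of the parent gene. The remaining 2 are the processed pseudogenes ENSG00000218426 (0.47) and ENSG00000244313 (0.41).

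The direction of the called genes went with transcript length. The 11 higher genes had transcripts of 295 to 2445 bases, with a median of 673, and the 41 lower genes had 3737 to 21842 bases, with a median of 7543, against a median of 3299 over all genes tested. The median GC content was 54.2% for the higher genes, 38.7% for the lower genes and 48.7% over all. When all tested genes were ordered by transcript length into deciles, the median log2 ratio of the shortest decile was 0.16 in pair 1, 0.22 in pair 2 and 0.11 in pair 3. That of the longest decile was -0.20, -0.27 and -0.08. The longest decile held 22 of the 41 lower genes and the shortest 7 of the 11 higher ones. Once each library's trend with length was taken as an offset, 1 gene was higher and 10 were lower, and 2 of the 52 genes were among them, ATRX and KIF20B (both adjusted p = 0.0490). With an offset for both length and GC content, 0 genes passed over 6 libraries. In replicates 1 and 2 with that offset, 744 genes were higher and 848 lower, and all 52 genes were among them. The part of length and GC content in the results was not tested beyond these values.

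**Figure D3:**
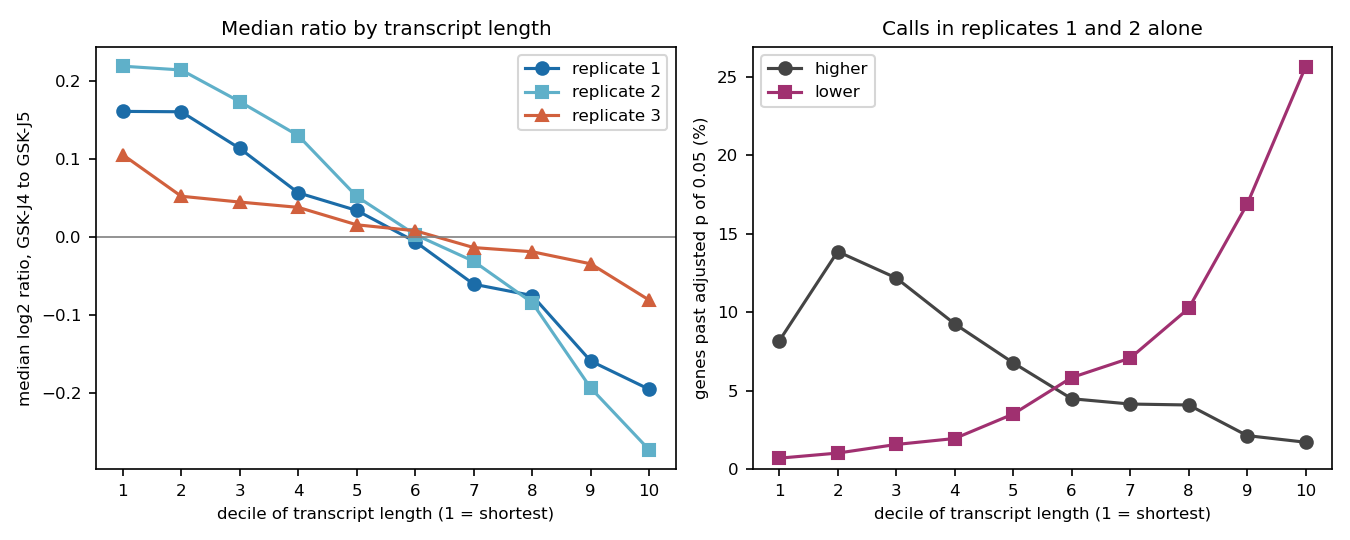
The left panel plots the median log2 ratio of GSK-J4 to GSK-J5 in each CAOV3 pair by decile of transcript length, and falls from 0.16, 0.22 and 0.11 in the shortest decile to -0.20, -0.27 and -0.08 in the longest for pairs 1, 2 and 3. The right panel plots the percentage of genes higher and lower at an adjusted p below 0.05 in replicates 1 and 2 alone, where the lower genes went from 0.694% of the shortest decile to 25.6% of the longest.

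Replicates 1 and 2 alone gave wider differences, which the second set showed in part. Of the 1107 genes higher in the first set that had a ratio in pair 3, 646 (58.4%) were above 0 there, against 50.8% of all genes. Of 1219 lower genes, 666 (54.6%) were below 0 in pair 3, against 49.1% of all. After removal of the length and GC trend, 429 of 742 higher genes (57.8%) kept their direction in pair 3, and 419 of 847 lower genes (49.5%) did, against 49.97% of all genes above 0 and 50.03% below. The gene lists held 1102 distinct genes in 52 lists, of which 989 were tested. Over 6 libraries 1 of them was higher and 5 were lower, and in replicates 1 and 2 there were 155 and 95.

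Lists with many members higher in the first set were those of ribosomal proteins, oxidative phosphorylation and cholesterol synthesis. For every list count in replicates 1 and 2, the share over all genes was 6.7% higher and 7.38% lower. The median transcript length was 1823 bases for the ribosomal list, 2024.5 for the oxidative phosphorylation list and 3180 for the cholesterol list, against 3299 over all genes. Of 42 cytosolic ribosomal protein genes, 32 were higher and 0 lower in replicates 1 and 2, with a median log2 fold change of 0.29. Over 6 libraries 0 passed edgeR's test (34 higher at an unadjusted p below 0.05, 14 higher by the Wald test of DESeq2 and 12 by limma voom), the median was 0.21, and 31 of the 42 were above 0 in all 3 pairs, against 2902 of all 16351 genes, with a median of 0.06 in pair 3. Of the 31 nuclear genes of oxidative phosphorylation tested in the first set, 19 were higher and 0 lower, with a median of 0.35, and their median in pair 3 was -0.01. ATP5MC1, the rotor ring subunit of ATP synthase, had a first-set fold of 1.62 (adjusted p = 0.000198). Of 27 genes of cholesterol synthesis and uptake, 15 were higher and 0 lower in the first set, with a median of 0.33, and the pair 3 median was 0.00107. DHCR7, the last enzyme of cholesterol synthesis, had 480, 440 and 414 CPM with GSK-J5 and 672, 627 and 396 CPM with GSK-J4 (first-set log2 fold change 0.50, adjusted p = 0.000214), so replicate 3 had the other order. Over 6 libraries edgeR called 0 genes of the oxidative phosphorylation list and 0 of the cholesterol list. At an unadjusted p below 0.05, 17 and 11 were higher there. The Wald test of DESeq2 called 7 and 3 higher, and limma voom 4 and 3. With the offset for length and GC content in replicates 1 and 2, 18 ribosomal genes were higher and 1 lower. The counts were 12 and 1 for oxidative phosphorylation and 11 and 0 for cholesterol genes.

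Of 37 genes of ATF4, the transcription factor of amino acid shortage, and of the amino acid response, 10 were higher and 0 lower in the first set, against 6.7% and 7.38% over all genes, and 0 passed over 6 libraries by edgeR (10 higher at an unadjusted p below 0.05, and 2 by the Wald test of DESeq2), with a median of 0.11. SLC38A2, a neutral amino acid transporter of that list, had 648, 706 and 709 CPM with GSK-J5 and 1104, 970 and 659 CPM with GSK-J4 (first-set log2 fold change 0.61, adjusted p = 5.16e-05). Replicates 1 and 2 were high with GSK-J4 and replicate 3 was below its control. S100A4, a calcium-binding protein of motile cells, had 65.7, 76.2 and 62.7 CPM with GSK-J5 and 141, 121 and 67.2 CPM with GSK-J4 (first-set log2 fold change 0.88, adjusted p = 4.72e-05).

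Of 13 protein genes of the mitochondrial genome, 8 were lower and 1 higher in the first set, against 7.38% and 6.7% over all genes, with a median of -0.36 in the first set and -0.08 in pair 3. MT-ND5, a complex I subunit encoded in mitochondria, had 754, 891 and 1245 CPM with GSK-J5 and 502, 572 and 1164 CPM with GSK-J4 (first-set log2 fold change -0.62, adjusted p = 0.000150). The offset for length and GC content gave 10 lower and 0 higher, with a median of -0.61. Mitosis genes went both ways, with 6 of 30 higher and 10 lower in the first set. With the offset for length and GC content there, 2 were higher and 12 lower. CENPE, a kinetochore motor, had 15.9, 20.3 and 28.4 CPM with GSK-J5 and 4.15, 5.19 and 25.7 CPM with GSK-J4 (first-set log2 fold change -1.96, adjusted p = 6.86e-05). MKI67, the proliferation marker Ki-67, had 296, 322 and 296 CPM with GSK-J5 and 112, 158 and 267 CPM with GSK-J4 (first-set log2 fold change -1.20, adjusted p = 5.11e-05). In both, the first set was far below GSK-J5 and replicate 3 nearly level with its control. Of 12 ovarian and Müllerian genes tested in the first set, 6 were lower and 0 higher. MSLN, the surface protein mesothelin, had 293, 279 and 384 CPM with GSK-J5 and 152, 183 and 421 CPM with GSK-J4 (first-set log2 fold change -0.78, adjusted p = 4.10e-05), with replicate 3 in the other direction.

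**Figure D4:**
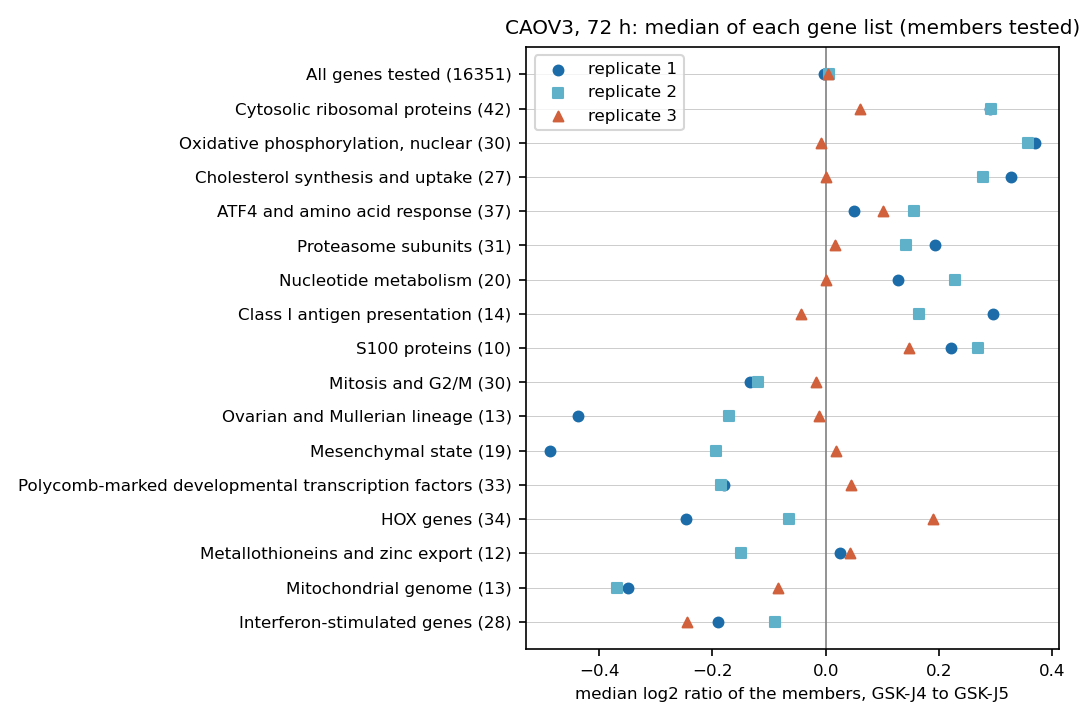
Median log2 ratio of GSK-J4 to GSK-J5 (x axis) over the tested members of each of 16 gene lists and over all genes tested (y axis, number of members in brackets), with 1 point for each same-numbered CAOV3 pair. Ribosomal genes had medians of 0.29, 0.29 and 0.06 in pairs 1, 2 and 3, and interferon-stimulated genes -0.19, -0.09 and -0.24.

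Lists tied to lysine 27 methylation showed no called gene over 6 libraries, where 0.0673% of all genes were higher and 0.251% lower. At shares this low, 0 called genes in a list of this size is no result about the list. Of 34 HOX genes tested, the textbook targets of Polycomb, 0 were higher and 0 lower by edgeR, over 6 libraries and in replicates 1 and 2 alike, with a median log2 fold change of -0.02. At an unadjusted p below 0.05 the counts over 6 libraries were 0 and 0, and the Wald test of DESeq2 and limma voom also called 0. Of 33 other transcription factor genes known as Polycomb targets, 0 were higher and 0 lower over 6 libraries, with a median of -0.23. At an unadjusted p below 0.05, 0 were higher and 4 lower, and the Wald test of DESeq2 and limma voom called 0. In replicates 1 and 2, 2 of them were lower, a share near the 7.38% of all genes, and the pair 3 median was 0.04.

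The response of CAOV3 differed from that of OVCAR-3 at the same dose and time. In the fit of all 18 libraries, 1491 of 19274 genes had a higher GSK-J4 effect in CAOV3 than in OVCAR-3 (7.74%) and 2539 a lower one (13.2%) by the interaction test. Without replicate 1 these counts were 0 and 0, without replicate 2 they were 0 and 1, and without replicate 3 they were 4257 and 3962. Leaving out any 1 library of replicates 1 or 2, or replicate 3 of CAOV3, gave 242 to 631 higher and 1260 to 2004 lower. Without OVCAR-3 GSK-J5 replicate 3 the counts were 4446 and 4141, and without OVCAR-3 GSK-J4 replicate 3 they were 4447 and 4140. GDF15, a secreted stress cytokine, had 25.9, 18.9 and 23.0 CPM with GSK-J5 and 24.9, 15.3 and 25.2 CPM with GSK-J4 in CAOV3 (all CPM in this comparison are scaled over the 18 libraries). In OVCAR-3 it had 1.91, 1.58 and 36.3 CPM with GSK-J5 and 300, 331 and 112 CPM with GSK-J4. The difference of the log2 effects was -5.76 ± 1.20 (SE, adjusted p = 0.00789), and without OVCAR-3 GSK-J5 replicate 1 it was -4.54 (adjusted p = 0.0505). Metallothioneins bind zinc and other metals. MT2A had 3423, 3496 and 2040 CPM with GSK-J5 and 3692, 3597 and 2091 CPM with GSK-J4 in CAOV3, against 27.7, 25.1 and 14.3 CPM and 2088, 2344 and 314 CPM in OVCAR-3. The difference was -5.71 ± 0.43 (SE, adjusted p = 1.86e-05). CAOV3 had a high MT2A level with either compound, while OVCAR-3 was low with GSK-J5 only.

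NGFR, the low-affinity neurotrophin receptor, had 12.6, 16.6 and 19.2 CPM with GSK-J5 and 12.0, 13.7 and 18.6 CPM with GSK-J4 in CAOV3, and 0.936, 1.05 and 2.05 CPM and 77.1, 75.9 and 54.6 CPM in OVCAR-3. The difference was -5.85 ± 0.48 (SE, adjusted p = 3.21e-05), and the OVCAR-3 groups were far apart while the CAOV3 groups overlapped. Without replicate 1 or replicate 2 of both compounds and all lines, the differences of GDF15, MT2A and NGFR kept their sign and did not pass the threshold, with adjusted p-values from 0.226 to 0.605. In the CAOV3 fit of 6 libraries, MT2A had a log2 fold change of 0.06 (95% interval -0.08 to 0.21), HMOX1, the heme-degrading enzyme of the oxidative stress response, -0.01 (-0.29 to 0.27), and GDF15 -0.06 (-0.43 to 0.31). TRIB3, an ATF4 target, had 0.29 (0.09 to 0.50, adjusted p = 0.142), and 0.38 in replicates 1 and 2 (adjusted p = 0.0137). CXCL8, which encodes the chemokine interleukin 8, had 0.83 (0.34 to 1.32, adjusted p = 0.0904), and 1.10 in replicates 1 and 2 (adjusted p = 0.00846). The effects of TRIB3 and CXCL8 in OVCAR-3 were 3.78 and 3.68, and the differences between the lines were -3.50 (adjusted p = 0.0111) and -2.86 (adjusted p = 0.00611).

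By list, 7 of 12 genes of metallothioneins and zinc export had a lower effect in CAOV3 than in OVCAR-3 and 0 a higher one, against 13.2% and 7.74% over all genes. The same counts were 20 and 1 of 25 for antioxidant targets of NRF2, 12 and 0 of 20 for aminoacyl-tRNA synthetases, 39 and 0 of 42 for ribosomal proteins and 11 and 1 of 16 for subunits and feedback genes of NF-kB. DNA replication genes went the other way, with 17 of 33 higher and 0 lower in CAOV3 than in OVCAR-3, and mitosis genes had 12 of 30 higher and 0 lower. The list of ATF4 and the amino acid response went both ways, with 5 of 38 higher and 6 lower. CHAC1 and SLC7A11, chosen after their values were seen, had higher effects in CAOV3, opposite to TRIB3. Their differences were 1.06 (adjusted p = 0.0216) and 1.35 (adjusted p = 0.00232) by the interaction test. UHRF1, which maintains DNA methylation at replication, had an effect of -3.04 in OVCAR-3 and -0.36 in the CAOV3 fit, and RRM2, a ribonucleotide reductase subunit, had -2.67 and 0.19. Interferon-stimulated genes had list medians of -0.17 in CAOV3, -0.29 in OVCAR-3 and -0.17 in SKOV3 in the 18-library fit. Of 29 tested there, 2 had a higher and 2 a lower effect in CAOV3 than in OVCAR-3.

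The 41 genes lower in CAOV3 had a median log2 effect of -0.48 in OVCAR-3, with 31 of the 41 below 0. In SKOV3 their median was 0.01, with 18 below 0. Over all 19274 genes, 10263 were below 0 in OVCAR-3 and 9145 in SKOV3. Of the 11 higher genes, 9 were above 0 in OVCAR-3 (median 1.24) and 7 in SKOV3 (median 0.02). Of all genes, 9011 and 10129 were above 0. For 12 of the 41 the CAOV3 effect was lower than that of OVCAR-3 by the interaction test and for 0 it was higher. The shares over all genes were 13.2% and 7.74%. The 41 genes were chosen on their low CAOV3 values, which also enter that test, so no conclusion is drawn from its count. The counts above and below 0 describe the other lines only. In OVCAR-3 the shortest and longest deciles of transcript length had medians of 0.764 and -0.545 in pair 1, 0.253 and -0.579 in pair 2, and -0.108 and -0.0852 in pair 3. In SKOV3 these medians lay between -0.0811 and 0.0671 in all 3 pairs. No gene had a called difference between CAOV3 and SKOV3 (0% by edgeR's interaction test, with 1030 at an unadjusted p below 0.05), and the Wald test of DESeq2 called 2 higher and 5 lower. By edgeR the counts were 138 higher and 310 lower without replicate 3, 4 and 20 without CAOV3 GSK-J4 replicate 3, 4 and 18 without CAOV3 GSK-J5 replicate 3, and 1 and 0 without CAOV3 GSK-J5 replicate 2. For MT2A the difference from SKOV3 was -0.66 (95% interval -1.50 to 0.18).

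**Figure D5:**
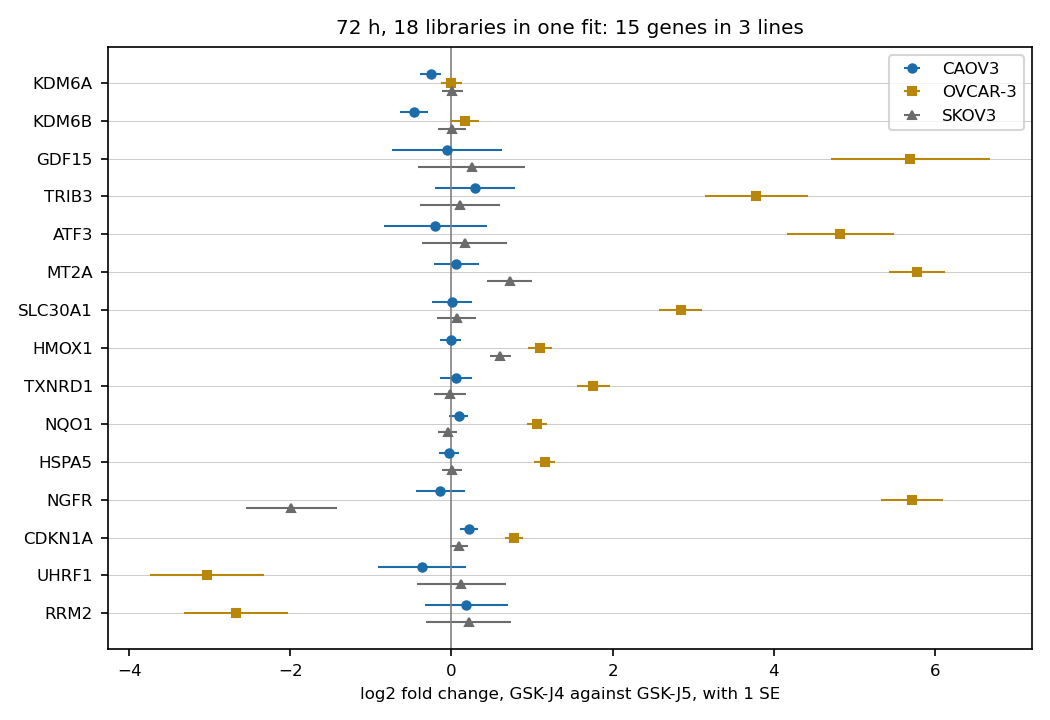
Log2 fold change of GSK-J4 against GSK-J5 (x axis, error bars of 1 SE) in CAOV3, OVCAR-3 and SKOV3 for 15 genes (y axis), from 1 fit of 18 libraries. GDF15, MT2A and NGFR have values of 5.70, 5.78 and 5.71 in OVCAR-3, and their CAOV3 points lie near 0.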

How the data were processed

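The values used were the authors' deposited raw counts, whole numbers that were not normalized, for 58825 Ensembl identifiers. STAR, DESeq2 and the build GRCh38 (hg38) are named, per the submitters' processing notes, without versions. How reads were counted, with or without strand, and on which annotation was not given in the sources used here. Antisense genes and near-identical copies are therefore uncertain. A gene name table gave 58472 symbols and GENCODE 29 gave 345, along with coordinates and transcript lengths.

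Tests used edgeR 4.0.16 (R 4.3.3): filterByExpr with a minimum count of 10, TMM scaling, glmQLFit (robust) and glmQLFTest on the 6 CAOV3 libraries with the library set as a covariate, and Benjamini-Hochberg adjustment over all genes tested at a threshold of 0.05. Differences between lines were interaction terms in a fit of 18 libraries with the set nested in the line. The script was tested on simulated counts. CPM are TMM-scaled; pair ratios used a prior count of 0.5 and fitted fold changes one of 0.125. Intervals are at 95%.

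Genes named were KDM6A, KDM6B, up to 15 called genes with the highest and 15 with the lowest fold changes at a mean log2 CPM of at least 1 and with 1 direction in every pair, up to 3 called members of each list, list members needed to describe a list, and 6 each way for differences between lines. Genes outside this rule are said to be chosen after their values were seen. The members, lists and tests were chosen with earlier results of these data known. Alternatives used DESeq2 1.42.0, limma 3.58.1 (voom), other filters, scaling and library terms, and left-out libraries, and offsets for transcript length and GC content over 20 bins were added after the data had been seen.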

Additional observations from a re-analysis of the deposited data

Results flagged for a closer look

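The GSK-J4 effect differed between CAOV3 and OVCAR-3 by the interaction test of edgeR for 12 genes taken as the 6 highest and 6 lowest differences past the threshold. A positive value means a higher log2 effect in CAOV3. CLDN5, a tight junction protein, differed by 6.49 (adjusted p = 0.0155), the long noncoding RNA LINC01018 by 6.22 (adjusted p = 0.0273), and CHSY3, a chondroitin synthase, by 4.52 (adjusted p = 0.0471). PCDHA7, a clustered protocadherin, differed by 4.43 (adjusted p = 0.00272), TNFAIP8L3, a lipid transfer protein, by 4.33 (adjusted p = 0.00723), and the unnamed gene ENSG00000278952 by 4.30 (adjusted p = 0.0200).

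The metallothionein MT1M differed by -10.5 (adjusted p = 4.55e-07), SLC43A3, a purine transporter, by -6.55 (adjusted p = 0.0173), and L3MBTL4 by -6.01 (adjusted p = 0.0120). NGFR differed by -5.85 (adjusted p = 3.21e-05), GDF15 by -5.76 (adjusted p = 0.00789) and MT2A by -5.71 (adjusted p = 1.86e-05). In OVCAR-3 all 3 GSK-J4 libraries held 0 counts of CLDN5, LINC01018 and CHSY3, and all 3 GSK-J5 libraries held 0 counts of SLC43A3 and L3MBTL4, so those differences depend on the prior count and are no bounds. MT1M had 0.0347, 0 and 0 CPM with GSK-J5 in OVCAR-3. With GSK-J4 there, PCDHA7 had 0, 0 and 0.0942 CPM and TNFAIP8L3 0, 0 and 0.0628 CPM. The sizes of the differences of MT1M, PCDHA7 and TNFAIP8L3 thus also rest on few or no reads.

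The difference of CHSY3 was 0.28 without OVCAR-3 GSK-J5 replicate 3, 0.28 without OVCAR-3 GSK-J4 replicate 3 and 0.30 without replicate 3 of every line, each with an adjusted p of 1.00 at this rounding. Without replicate 1 of every line none of the 12 differences passed the threshold, with adjusted p-values from 0.137 (MT1M) to 0.588, and without replicate 2 only MT1M did. With the replicate block CLDN5 (adjusted p = 0.0675), LINC01018 (0.0823), CHSY3 (0.0962) and ENSG00000278952 (0.0652) did not pass. PCDHA7 did not pass without replicate 3 (adjusted p = 0.0621). Leaving out at least 1 single library also ended the call of CLDN5, LINC01018, CHSY3, PCDHA7, ENSG00000278952, SLC43A3 and GDF15.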

How the results depend on the processing

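The counts of called genes in CAOV3, 11 higher and 41 lower, moved with most settings, and the cause was not tested. With DESeq2 size factors in the edgeR fit they were 11 and 34. The DESeq2 Wald test gave 267 and 376 (49 of the 52 genes among them), limma voom 137 and 177 (51 of 52), and no filter on low counts 276 and 556 (52 of 52). They were 0 and 0 without the library set term, 0 and 0 with a replicate block, 0 and 0 with 18 libraries in one fit, and 0 and 0 against a fold of 1.5. Leaving out replicates or single libraries gave 0 to 1112 higher and 0 to 1260 lower genes. Of the 12 genes called without replicate 1, 6 were among the 52, and of the 18 called without replicate 2, 0 were.

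Offsets chosen after seeing the data gave 1 and 10 for transcript length and 0 and 0 for length and GC content over 6 libraries, and 710 and 833 (length) and 744 and 848 (length and GC content) in replicates 1 and 2. Of the distinct list members, 1 higher and 5 lower, the counts were 155 and 95 without replicate 3, 0 and 5 with the length offset, 0 and 0 with the offset for both, 92 and 89 with the length offset in replicates 1 and 2, and 104 and 91 with both there. The 5 lower members with the length offset over 6 libraries were other genes. With it, SAMD9L, SAMD9, OAS3, BRCA2 and FN1 had adjusted p-values from 0.101 to 0.154 by edgeR's test.

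The replicate numbers were not taken to pair the libraries: same-numbered libraries deviated together with correlations of 0.199, 0.0664 and 0.463, and GSK-J4 replicates 1, 2 and 3 correlated best with GSK-J5 replicates 1, 1 and 3. The difference from OVCAR-3, 1491 higher and 2539 lower, was 168 and 1049 with the replicate block and 2587 and 2917 by the DESeq2 Wald test. It ranged from 0 to 4447 higher and from 0 to 4141 lower over left-out replicates and libraries. The difference from SKOV3, 0 and 0, was 28 and 59 without a filter, 2 and 5 by the DESeq2 Wald test, and 0 to 138 higher and 0 to 310 lower over left-out replicates and libraries. The alternatives were followed for 30 genes named by the rule and for the 12 named differences from OVCAR-3. Each of those estimates kept its sign under each alternative run. Other genes given in the text were not followed through all of the alternatives.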

Other observations

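The following gene lists of CAOV3 are described by their counts in replicates 1 and 2, where 6.7% of all genes were higher and 7.38% lower, and by their medians there and in pair 3. No difference between the library sets was tested. In replicates 1 and 2, 10 of 31 genes of the proteasome, which degrades tagged proteins, were higher and 1 lower, with a median log2 fold change of 0.16 there and 0.02 in pair 3. Of 20 genes of nucleotide metabolism, 6 were higher and 0 lower, with medians of 0.16 and -0.000323. Of 31 genes of glycolysis and hypoxia, 7 were higher and 1 lower, with medians of 0.10 and 0.05. Of 14 genes of class I antigen presentation, which displays peptides to T cells, 4 were higher and 1 lower, with medians of 0.28 and -0.04. With the offset for length and GC content in replicates 1 and 2, the counts higher and lower were 2 and 1 for the proteasome, 6 and 0 for nucleotide metabolism, 4 and 2 for glycolysis and hypoxia, and 3 and 0 for antigen presentation.

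Groups with lower members in the first set were the feedback genes and subunits of NF-kB, with 1 of 16 higher and 5 lower (median -0.16, and -0.000574 in pair 3), and the 2-oxoglutarate oxygenases of chromatin and hypoxia, the enzyme class of KDM6A and KDM6B, with 0 of 25 higher and 4 lower (median -0.26, and -0.07 in pair 3). With the same offset the NF-kB genes had 1 higher and 4 lower, and the oxygenases 1 higher and 0 lower. Over 6 libraries edgeR called 0 genes in each of these 6 lists, with 0 to 10 members higher and 0 to 7 lower at an unadjusted p below 0.05, 0 to 4 higher and 0 to 1 lower by the Wald test of DESeq2, and 0 to 2 higher and 0 lower by limma voom. Of all genes, edgeR called 0.0673% higher and 0.251% lower there.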
